A study of Caenorhabditis elegans with 10 samples.

Results

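The comparison described here sets wdr-23 mutant Caenorhabditis elegans fed skn-1 RNAi bacteria against wild-type N2 animals fed control RNAi bacteria, and asks which transcripts still differed from wild type after skn-1 knockdown. The samples were chosen by their titles alone: 3 arrays of wdr-23 skn-1 RNAi animals and 3 arrays of N2, together 6 of the 10 arrays of the series. The other 4 arrays came from wdr-23 mutants fed control RNAi bacteria. They enter the fit and are given beside the others as values. Each array was hybridised with RNA from a pool of whole animals, grown from synchronised L1 larvae until most had reached the L4 stage, on HT115 bacteria that express double-stranded RNA. The sample labels name the mutant allele tm1718 and the study's design text names it tm1817, so the allele is not settled here. The titles call the replicates biological, without saying whether they were grown apart. The p-values therefore measure the spread between these samples.

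The WD-repeat protein WDR-23 works with the DDB-1 and CUL-4 ubiquitin ligase to keep the transcription factor SKN-1 scarce in the nucleus. Related to the mammalian Nrf factors, SKN-1 switches on genes of glutathione synthesis and conjugation, chiefly in the intestine. Loss of wdr-23 is known to release SKN-1, and RNAi by feeding lowers a transcript without removing the gene. RNAi by feeding is also known to act weakly in most neurons. N2 animals fed skn-1 RNAi bacteria were not analysed here. The genotype and the RNAi differ together in this comparison. By their labels, wdr-23 control RNAi animals differ from N2 in the genotype alone and from wdr-23 skn-1 RNAi animals in the RNAi alone. No label gives the batch of RNA extraction or hybridisation, so other differences between the groups cannot be told apart from these.

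The skn-1 transcript, measured on 3 probe sets, was lower but still present in the knockdown. Its brightest probe set had signals of 289, 237 and 245 in wdr-23 skn-1 RNAi animals, against 534, 413 and 417 in N2. The 3 knockdown arrays lay below the 3 N2 arrays. The log2 change was -0.77 (SE 0.15, limma adjusted p = 0.00577), a fold of 1.71 on this scale. A second skn-1 probe set fell by 0.65 (log2, adjusted p = 0.0142), a call that ended on leaving out N2 replicate 1 (-0.60) or wdr-23 skn-1 RNAi replicate 2 (-0.55), and the third had a log2 change of -0.42 and did not pass the test (adjusted p = 0.188). Against wdr-23 control RNAi animals the same 3 probe sets fell by 0.83, 0.96 and 0.72 (adjusted p = 0.000708, 0.000123 and 0.00522). The single wdr-23 probe set had signals of 919, 904 and 882 in wdr-23 skn-1 RNAi animals, against 1026, 846 and 725 in N2. These groups overlapped, with a log2 change of 0.072 (adjusted p = 0.858). The wdr-23 control RNAi animals averaged 3259 ± 453 (SD, n = 4) on this probe set. Their log2 change against N2 was 1.89 (adjusted p = 1.14e-08). The files do not say where its probes lie in the gene, so this signal does not check the genotype. Where a call below ended when 1 array was left out, those arrays are named with the log2 changes found without them; skn-1 RNAi replicates are those of the mutant.

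Array medians ran between 113 and 139.7 across the series, and the correlation between arrays of a group was at least 0.984. One feature of the RNA moved with the skn-1 RNAi arrays: all 5 probe sets of the ribosomal RNA gene rrn-3.1 were called higher than in N2, with log2 changes of 0.67 to 4.17. On the probe set with the largest change the signals were 5090.1, 4515 and 4131 in wdr-23 skn-1 RNAi animals, against 233.7, 181 and 308 in N2. The 4 arrays of wdr-23 control RNAi animals had signals of 231 to 450.4 on it, so all 3 knockdown arrays stood above the other 7. A probe set of another ribosomal RNA gene, rrn-3.56, was not called (log2 change 0.58, limma adjusted p = 0.197), and its groups overlapped. The part of the rrn-3.1 signal in the results below was not tested, and no array can be left out to remove it.

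Of 15783 probe sets tested, 1001 (6.34%) were called, meaning an adjusted p under 0.05 over all tested probe sets: 613 (3.88%) were higher and 388 (2.46%) were lower in wdr-23 skn-1 RNAi animals than in N2. At least 2-fold changes were called for 131 (0.83%) higher and 76 (0.482%) lower probe sets. Counted with 1 probe set per gene, 805 of 12061 genes (6.67%) were called, 497 (4.12%) higher and 308 (2.55%) lower. These gene shares are the background for each gene group below. The median log2 change of all genes was 0.03. Centring each array on its median turned the split of probe sets to 476 higher and 514 lower, so the direction of small changes depends on the scaling. The total fell to 600 probe sets without N2 replicate 1, 588 without wdr-23 skn-1 RNAi replicate 2 and 523 without wdr-23 skn-1 RNAi replicate 3. The lower probe sets numbered 246 without N2 replicate 2 and 251 without wdr-23 skn-1 RNAi replicate 1. In the same fit, wdr-23 control RNAi animals differed from N2 in 4344 probe sets (27.5%). Both counts use the same N2 arrays, so they are not independent. The 4344 compare 4 arrays with 3, and the 1001 compare 3 with 3. The wdr-23 control RNAi arrays also had the highest medians, so the counts are not alike in power or scaling.

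**Figure D1:**
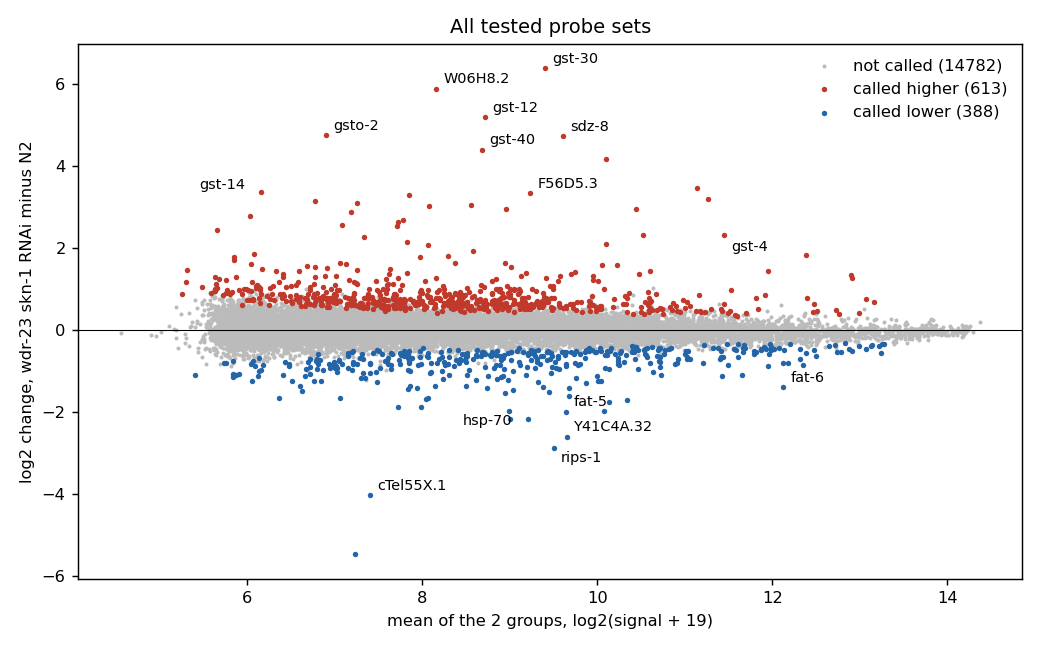
Log2 change between wdr-23 skn-1 RNAi animals and N2 (vertical axis, log2 of signal plus 19), 1 point per tested probe set. The horizontal axis is log2 of the group mean signal plus 19, averaged over these groups. The 613 probe sets called higher reach a log2 change of 6.38 (gst-30), and the 388 called lower reach -5.48, the second probe set of cTel55X.1.

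Genes of glutathione conjugation were furthest above wild type. Of the 12 largest rises, 6 were in glutathione S-transferases named gst and 1 in gsto-2, an omega-class glutathione transferase. These enzymes join glutathione to reactive compounds. The gene gst-30 had signals of 6138, 5907 and 6012 in wdr-23 skn-1 RNAi animals and 10805 ± 467 (SD, n = 4) in wdr-23 control RNAi animals, against 84, 33 and 52.2 in N2. The knockdown arrays were thus far above N2 and closer to wdr-23 control RNAi animals than to wild type on the log scale. The log2 change against N2 was 6.38 (SE 0.17, adjusted p = 1.08e-13), a fold of 83.2 with the pseudocount of 19, which understates the ratio of signals where one group is dim.

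The gene W06H8.2 had signals of 2230.1, 2068 and 2160.3 in wdr-23 skn-1 RNAi animals, against 23.8, 23.1 and 8.93 in N2, a log2 change of 5.88 (SE 0.16, adjusted p = 1.07e-13). Its fold was 58.8 with a pseudocount of 19, 96.1 with 5 and 32.3 with 50. The gene gst-12 had signals of 2442, 2478 and 2619 in wdr-23 skn-1 RNAi animals, against 47.9, 42.7 and 61.2 in N2 (log2 change 5.19, SE 0.13, adjusted p = 7.76e-14). In both genes every knockdown array was far above every N2 array. The omega-class gene gsto-2 was near 0 in wild type, with signals of 572, 552 and 683 in wdr-23 skn-1 RNAi animals, against 2.21, 6.28 and 3.5 in N2. Its fold of 27 became 68.4 with a pseudocount of 5 and 12 with 50, so its size depends on the pseudocount.

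The gene sdz-8, named as a SKN-1-dependent zygotic transcript, had signals of 4138, 3779 and 4011 in wdr-23 skn-1 RNAi animals, against 129.8, 124 and 144 in N2 (log2 change 4.72, SE 0.11, adjusted p = 3.24e-14). The gene gst-40 had signals of 1782, 1824 and 2005 in wdr-23 skn-1 RNAi animals and 9574 ± 424 in wdr-23 control RNAi animals, against 65.3, 71.8 and 75 in N2 (log2 change 4.396). Here the knockdown arrays lay clearly between both other groups. The rest of the 12 were gst-14 (log2 change 3.36), F56D5.3 (3.34), T19D12.3 (3.14), dhsl-4 (3.097), gst-16 (3.03) and gst-5 (2.95), with adjusted p of 3.96e-10 or less. The folds of gst-14 and T19D12.3, 10.2 and 8.81, moved by more than 1.5 times with the pseudocount, to 25.9 and 13.6 with 5 and to 4.87 and 5.24 with 50. The probe set of gst-16 carries a suffix for probes that may also bind related transcripts.

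**Figure D2:**
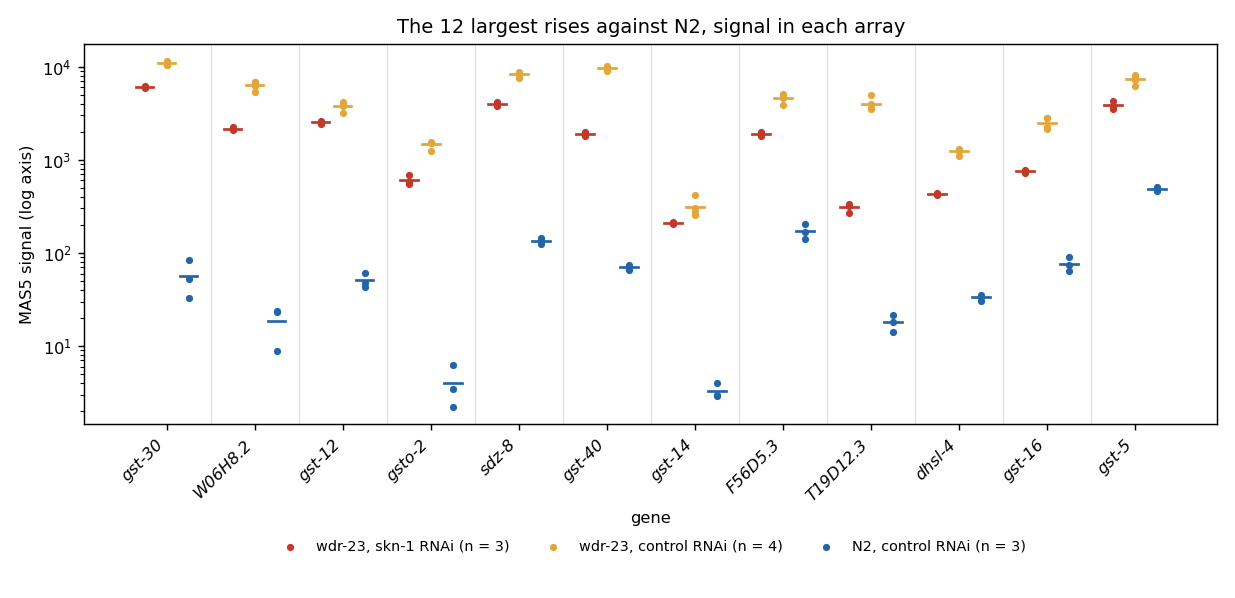
MAS5 signal (log axis) in each array for the 12 genes with the largest rises, with a line at the mean of each group: wdr-23 skn-1 RNAi animals (n = 3), wdr-23 control RNAi animals (n = 4) and N2 (n = 3). Every knockdown array lies above every N2 array in all 12 genes, and gst-30 averaged 6019 in wdr-23 skn-1 RNAi animals, against 56.4 in N2.

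A list of SKN-1 readout genes was written from earlier worm work, with earlier results of these data known. All 14 of its members were tested, with 12 called higher, 1 lower and a median log2 change of 1.51. Its gst genes also count in the glutathione S-transferase list below. The common reporter gene gst-4 had signals of 6319, 6487 and 5831 in wdr-23 skn-1 RNAi animals and 11562 ± 1099 (SD, n = 4) in wdr-23 control RNAi animals, against 1170.4, 1174 and 1351 in N2. Its knockdown arrays did not overlap with N2 (log2 change 2.32, SE 0.11, adjusted p = 2.89e-10). The gene gcs-1, the rate-limiting enzyme of glutathione synthesis, had signals of 1654, 1903 and 1780.1 in wdr-23 skn-1 RNAi animals and 5445 ± 289 in wdr-23 control RNAi animals, against 1105, 877 and 849 in N2. It stayed above N2 in every knockdown array (log2 change 0.91, SE 0.12, adjusted p = 0.000119), on a suffixed probe set that may bind related transcripts. Rises were also called for gst-10 (1.58), gst-7 (1.43), the short-chain dehydrogenase dhs-8 (1.35) and the nitrilase-family gene nit-1 (0.60).

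The readouts did not all stay above wild type. The gene gst-38 had signals of 283, 315 and 345 in wdr-23 skn-1 RNAi animals and 11140.5 ± 820.4 in wdr-23 control RNAi animals, against 211, 232 and 248 in N2. The knockdown arrays were a small step above N2 (log2 change 0.42, adjusted p = 0.0482), and that call ended in 16 of 20 alternative analyses, among them on leaving out any of the 6 arrays or control RNAi mutant replicate 1, 2 or 3 (0.35 to 0.49). The gene gst-13 fell below wild type, with signals of 542, 569.6 and 538 in wdr-23 skn-1 RNAi animals and 5210.2 ± 543 in wdr-23 control RNAi animals, against 809.99, 725 and 913 in N2. Its log2 change of -0.55 (SE 0.12, adjusted p = 0.0127) was not called on leaving out N2 replicate 3 or skn-1 RNAi replicate 3 (-0.53 to -0.47). The gene ptps-1, for a tetrahydropterin synthesis enzyme, had signals of 174, 148 and 209 in wdr-23 skn-1 RNAi animals and 672 ± 76 in wdr-23 control RNAi animals, against 191, 177 and 168 in N2. The knockdown and N2 arrays overlapped (log2 change -0.024, adjusted p = 0.962).

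Among genes listed as regulators of SKN-1, 0 of 18 were called higher and 2 lower, skn-1 itself and mxl-3 (-0.66), a basic helix-loop-helix factor of fat storage. The mxl-3 call ended on leaving out N2 replicate 3 or skn-1 RNAi replicate 1 (-0.58 to -0.53).

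Of 42 tested glutathione S-transferase genes, 21 were called higher and 2 lower, with a median log2 change of 0.49; another 3 were too dim to test. Of the 21, 17 rose at least 2-fold. Besides the genes above these included gst-31 (log2 change 2.87), gst-39 (2.33), gst-2 (2.27), gst-20 (1.63), gst-8 (1.604), gst-29 (1.49) and gst-3 (1.16), and gst-6 rose by 0.94. These, gst-28 and gstk-2 were named after their values were seen, to describe the family. The gene gst-39 had signals of 3046, 3282 and 3484 in wdr-23 skn-1 RNAi animals, against 656, 610 and 644 in N2. The gene gst-29 had signals of 303, 313 and 316 in wdr-23 skn-1 RNAi animals and 281 ± 28.5 in wdr-23 control RNAi animals, against 75.3, 109 and 115 in N2. In gst-29 both mutant groups lay above N2. The gene gst-6 averaged 856 ± 36.5 in wdr-23 skn-1 RNAi animals and 4898 ± 345 in wdr-23 control RNAi animals, against 437 ± 45.1 in N2 (SD, n = 3, 4 and 3).

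Small rises were called for gst-28 (0.49) and for gstk-2 (0.59), a kappa-class transferase. The call of gst-28 ended on leaving out any N2 replicate or skn-1 RNAi replicate 2 or 3 (0.42 to 0.53), and that of gstk-2 on leaving out N2 replicate 1 or 2 or skn-1 RNAi replicate 2 or 3 (0.47 to 0.62). The exceptions that fell were gst-13 and gst-19. The gene gst-19 had signals of 33.2, 49.6 and 38.6 in wdr-23 skn-1 RNAi animals and 26.3 ± 15.3 in wdr-23 control RNAi animals, against 122, 113 and 128 in N2. Every knockdown array was below every N2 array (log2 change -1.24, SE 0.26, adjusted p = 0.00762), again on a suffixed probe set. The 19 members that did not pass the test had log2 changes of -0.55 (gst-9) to 0.54.

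Other steps of detoxification were called in single genes. Of 22 listed genes of glutathione, thioredoxin and NADPH supply, gcs-1 alone was called, and the median of the list was 0.03. Without control RNAi mutant replicate 2, 2 were called higher. The list leaves out the glutathione synthesis modifier gene gclm-1 and the pentose phosphate gene T25B9.9. Both were called higher as well, as given under other observations. Of 13 superoxide dismutase, catalase and peroxidase genes 0 were called higher and 1 lower. That gene was gpx-3, a glutathione peroxidase, with signals of 103, 150.4 and 144 in wdr-23 skn-1 RNAi animals and 155 ± 28.8 in wdr-23 control RNAi animals, against 489, 418 and 449.8 in N2. The groups did not overlap, and the log2 change was -1.65 (SE 0.17, adjusted p = 7.36e-06). Of 50 ABC transporters, which pump conjugates out of cells, 2 were called higher and 0 lower. The higher count was 4 without N2 replicate 2, 1 without any 1 skn-1 RNAi replicate or without control RNAi mutant replicate 3, and 0 of the 35 genes tested without suffixed probe sets. The multidrug exporter mrp-1 had signals of 1461, 1697 and 1481 in wdr-23 skn-1 RNAi animals, against 693, 576 and 563 in N2 (log2 change 1.32, SE 0.15, adjusted p = 2.19e-05). Its probe set is suffixed and may bind related transcripts. The smaller rise of mrp-5 (0.39), a haem exporter, was not called in 11 of the 20 alternatives, among them on leaving out any of the 6 arrays or control RNAi mutant replicate 3 (0.33 to 0.43).

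The UDP-glucuronosyltransferases, which add sugars to foreign compounds, moved both ways: 2 of 53 were higher and 6 lower, with a median log2 change of -0.20. Without N2 replicate 1, 4 were higher and 7 lower. The largest rise was that of ugt-53, with signals of 284, 216 and 245 in wdr-23 skn-1 RNAi animals and 64.3 ± 4.11 in wdr-23 control RNAi animals, against 97.8, 88.9 and 108 in N2 (log2 change 1.19, adjusted p = 0.000123). The other that rose was ugt-11 (0.72). The gene ugt-13 had signals of 219.7, 213 and 221 in wdr-23 skn-1 RNAi animals and 2298 ± 233 in wdr-23 control RNAi animals, against 434, 306 and 341 in N2. Its knockdown arrays were the lowest of the series (log2 change -0.67, adjusted p = 0.00808). Falls were also called for ugt-4 (-1.097), ugt-63 (-1.04) and ugt-41 (-0.86). Of 42 cytochrome P450 oxidases bright enough to test of 73 on the array, 0 were called higher and 3 lower (5 with median centring): cyp-29A3 (-1.07), cyp-13B1 (-0.99) and cyp-36A1 (-0.84). The call of cyp-29A3 ended on leaving out any N2 replicate or skn-1 RNAi replicate 1 or 3 (-1.11 to -0.796). Of 28 short-chain dehydrogenases 4 were higher and 2 lower, or 2 and 2 with median centring. Besides dhs-8, dhs-18 (0.59), dhs-27 (0.61) and dhs-12 (0.37) rose, and dhs-25 (-0.799) and dhs-3 (-0.44) fell. Calls ended for dhs-27 on leaving out N2 replicate 1 or 3, any skn-1 RNAi replicate or control RNAi mutant replicate 1 or 4 (0.45 to 0.66), for dhs-12 on leaving out N2 replicate 1 or 2, any skn-1 RNAi replicate or control RNAi mutant replicate 1 or 3 (0.33 to 0.38) and for dhs-3 on leaving out any of the 6 arrays (-0.499 to -0.38).

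The 12 largest falls had log2 changes of -4.03 to -1.66, beside 2.95 to 6.38 for the 12 largest rises. The gene cTel55X.1, on chromosome X, had signals of 12.9, 21.5 and 36 in wdr-23 skn-1 RNAi animals and 25.3 ± 15.8 (SD, n = 4) in wdr-23 control RNAi animals, against 629.7, 663 and 677 in N2. A second probe set gave 4.06, 1.64 and 4.74 in wdr-23 skn-1 RNAi animals, against 1048, 985 and 912 in N2. Both mutant groups were near the bottom of the scale and N2 well above it, at a log2 change of -4.03 (SE 0.27, adjusted p = 2.27e-08) on the first probe set. Its fold of 16.3 became 24.6 with a pseudocount of 5 and 9.7 with 50.

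The gene rips-1, named for its interaction with RHY-1 of the hypoxia and sulfide response, had signals of 265, 274 and 209 in wdr-23 skn-1 RNAi animals and 169 ± 49.8 in wdr-23 control RNAi animals, against 2112, 2010.1 and 1716 in N2 (log2 change -2.88, SE 0.18, adjusted p = 1.52e-08). The gene Y41C4A.32 had signals of 307, 274 and 339 in wdr-23 skn-1 RNAi animals and 68.6 ± 8.38 in wdr-23 control RNAi animals, against 2299, 1684 and 1947 in N2 (log2 change -2.61). In both genes each mutant group lay wholly below N2. The pattern of warf-1 and K06H6.2 was like that of Y41C4A.32: warf-1 averaged 528 ± 122 in wdr-23 skn-1 RNAi animals and 143 ± 29.2 in wdr-23 control RNAi animals, against 2117 ± 142 in N2 (SD, n = 3, 4 and 3). Their log2 changes were -1.99 and -1.97. The other large falls were F54B8.4 (-1.87), F42A9.6 (-1.76), the acyltransferase-like gene acl-12 (-1.71), Y58A7A.5 (-1.68) and C10C5.5 (-1.66). All 12 of the largest falls were called under each of the 20 alternative analyses that tested them.

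**Figure D3:**
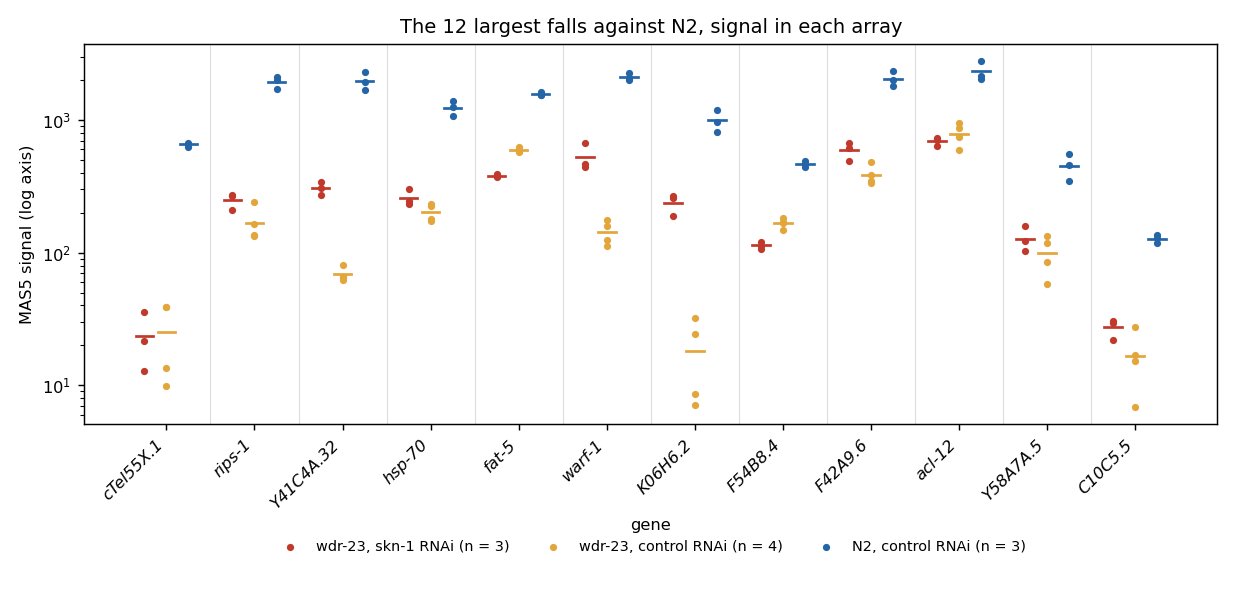
MAS5 signal (log axis) in each array for the 12 genes with the largest falls, with a line at the mean of each group: wdr-23 skn-1 RNAi animals (n = 3), wdr-23 control RNAi animals (n = 4) and N2 (n = 3). Every knockdown array lies below every N2 array, and fat-5 averaged 382 in wdr-23 skn-1 RNAi animals, against 1582 in N2.

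All 3 genes for the fatty acid desaturases that introduce the first double bond fell below wild type. The gene fat-5, which acts mainly on palmitic acid, had signals of 392.43, 382 and 370.1 in wdr-23 skn-1 RNAi animals and 597 ± 19.4 (SD, n = 4) in wdr-23 control RNAi animals, against 1636, 1553 and 1556 in N2. The knockdown arrays were the lowest of the 10, with a log2 change against N2 of -1.999 (SE 0.11, adjusted p = 2.57e-09). The gene fat-6, which acts on stearic acid, had signals of 2816, 2766 and 2593 in wdr-23 skn-1 RNAi animals, against 7120.01, 7991 and 6609 in N2 (log2 change -1.40, adjusted p = 1.17e-07). Its near twin fat-7 had signals of 1819.8, 1919 and 1802 in wdr-23 skn-1 RNAi animals, against 3473, 4456 and 4184 in N2 (log2 change -1.11, adjusted p = 6.17e-06). These genes are close copies, and the fat-6 probe set carries the suffix for shared probes. No other of the 21 desaturases and elongases passed the test, and their median was -0.11; 1 was called higher without N2 replicate 3. These desaturases act chiefly in the intestine, whose marker genes had a lower summed signal in the knockdown arrays than in N2, as given with the tissue lists, and the part of that shift was not tested.

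Fatty acid breakdown genes moved in both directions, with 4 of 59 higher and 4 lower, or 2 and 5 with median centring. The acyl-CoA synthetase gene acs-2, known for its induction in fasting, had signals of 374, 417 and 388 in wdr-23 skn-1 RNAi animals and 492 ± 164 in wdr-23 control RNAi animals, against 1306, 1110.5 and 1056 in N2. Its knockdown arrays lay below N2 (log2 change -1.51, SE 0.20, adjusted p = 0.000139). The enoyl-CoA hydratase gene ech-9 (-0.94) and the carnitine palmitoyl transferase gene cpt-5 (-0.72) fell as well. The enoyl-CoA hydratase gene ech-6 (-0.33) was the other fall. The genes acdh-4 (0.91), acs-7 (0.804), acox-3 (0.77) and ech-7 (0.44) rose. Calls ended for cpt-5 on leaving out N2 replicate 1 or skn-1 RNAi replicate 1 or 3 (-0.72 to -0.61) and for ech-6 on leaving out any N2 replicate or skn-1 RNAi replicate 2 or 3 (-0.35 to -0.29). They ended for acox-3 on leaving out any of the 6 arrays (0.69 to 0.83) and for ech-7 on leaving out N2 replicate 2 or 3 or any skn-1 RNAi replicate (0.397 to 0.46). Of 8 lysosomal lipases and their regulators tested, 2 regulators fell, mxl-3 and mml-1 (-0.53), and mml-1 was not called on leaving out N2 replicate 1 or 2 or skn-1 RNAi replicate 1 or 3 (-0.52 to -0.44). The glyoxylate cycle gene icl-1 fell, with signals of 3869, 3826 and 3795 in wdr-23 skn-1 RNAi animals, against 6879.8, 7460.4 and 6695 in N2 (log2 change -0.87, adjusted p = 1.67e-05).

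Heat shock genes and endoplasmic reticulum genes lay below wild type where they differed. Of 13 heat shock genes 0 were called higher and 3 lower. The inducible chaperone gene hsp-70 had signals of 244, 303 and 231 in wdr-23 skn-1 RNAi animals and 202 ± 30.3 in wdr-23 control RNAi animals, against 1069.96, 1256 and 1398 in N2 (log2 change -2.18, SE 0.16, adjusted p = 7.68e-08). The small heat shock gene hsp-16.2 had signals of 426, 441 and 574 in wdr-23 skn-1 RNAi animals, against 1159, 1400.1 and 1391 in N2 (log2 change -1.43, adjusted p = 1.07e-05), and hsp-16.41 fell by 1.39 (log2). No array of either mutant group reached the lowest N2 array in these genes. The hsp-70 probe set carries the suffix for probes that may also bind related transcripts. Without suffixed probe sets 2 of 10 heat shock genes tested were called lower. Of 19 chaperones and sensors of the endoplasmic reticulum, 0 were called higher and 4 lower. The BiP gene hsp-4 had signals of 3139.8, 2592 and 2984 in wdr-23 skn-1 RNAi animals, against 5343, 5339 and 5378 in N2 (log2 change -0.88, adjusted p = 7.34e-05). The unfolded protein response factor gene xbp-1 (-0.52), the kinase gene pek-1 (-0.74) and the disulfide isomerase gene pdi-2 (-0.47) fell too. The hsp-4 probe set is also suffixed, and without suffixed probe sets 1 of 11 genes tested in this list was called lower. Calls ended for pek-1 on leaving out N2 replicate 1 or 2 or skn-1 RNAi replicate 1 or 3 (-0.74 to -0.67) and for pdi-2 on leaving out N2 replicate 1 or 2 or skn-1 RNAi replicate 3 (-0.46 to -0.39). Of 33 proteasome subunits, pbs-1 (-0.34) was called lower, and that call ended on leaving out any of the 6 arrays (-0.38 to -0.32); after quantile normalization 1 other subunit was called higher and 0 lower.

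Genes of hydrogen sulfide and hypoxia had the largest share of falls among the lists with at least 10 tested genes, 6 of 17 lower and 1 higher, with a median of -0.20. Without probe sets that carry a suffix, 2 of the 9 genes still tested were lower and 1 was higher. The gene sqrd-1, for sulfide quinone oxidoreductase, had signals of 311, 278 and 300.4 in wdr-23 skn-1 RNAi animals and 199 ± 31.8 in wdr-23 control RNAi animals, against 806, 848 and 916 in N2. All knockdown arrays lay below N2 (log2 change -1.47, SE 0.14, adjusted p = 3.85e-06). The cysteine synthase-like gene cysl-3 fell by 0.95 (log2), with signals of 555, 488 and 529 in wdr-23 skn-1 RNAi animals, against 1013, 935 and 1138 in N2. The regulator gene rhy-1 (-0.72) and gst-19 also fell, and the cystathionine lyase gene cth-1 (0.63) rose. The rhy-1 call ended on leaving out N2 replicate 2 or 3 or skn-1 RNAi replicate 1 or 3 (-0.76 to -0.56), and the cth-1 call on leaving out N2 replicate 1 or skn-1 RNAi replicate 2 or 3 (0.57 to 0.63).

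Metal and haem genes showed 2 rises and 4 falls among 26. The ferritin gene ftn-1, which stores iron, had signals of 119.31, 128 and 147 in wdr-23 skn-1 RNAi animals and 455 ± 59.7 in wdr-23 control RNAi animals, against 345, 389 and 407 in N2. The knockdown arrays were low against both other groups (log2 change against N2 -1.41, SE 0.14, adjusted p = 6.55e-06). The cadmium-responsive gene cdr-4 had signals of 652, 603 and 681 in wdr-23 skn-1 RNAi animals and 727 ± 87.5 in wdr-23 control RNAi animals, against 1505, 1422 and 1779.96 in N2, so both mutant groups were below N2 (log2 change -1.25). Of the haem-responsive genes, hrg-4 (1.12), an intestinal haem importer, and hrg-7 (0.98) rose and hrg-11.2 (-0.67) fell. The metallothionein gene mtl-2 (-0.35) fell, and that call ended on leaving out N2 replicate 2 or 3 or any skn-1 RNAi replicate (-0.38 to -0.32). Of 14 DAF-16 targets, which answer to insulin signalling, fat-5, icl-1 and dod-3 (-0.52) fell and ins-7 (0.83) rose, with 2 higher without N2 replicate 3. The dod-3 call ended on leaving out N2 replicate 2 or 3, any skn-1 RNAi replicate or control RNAi mutant replicate 3 (-0.61 to -0.38).

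**Figure D4:**
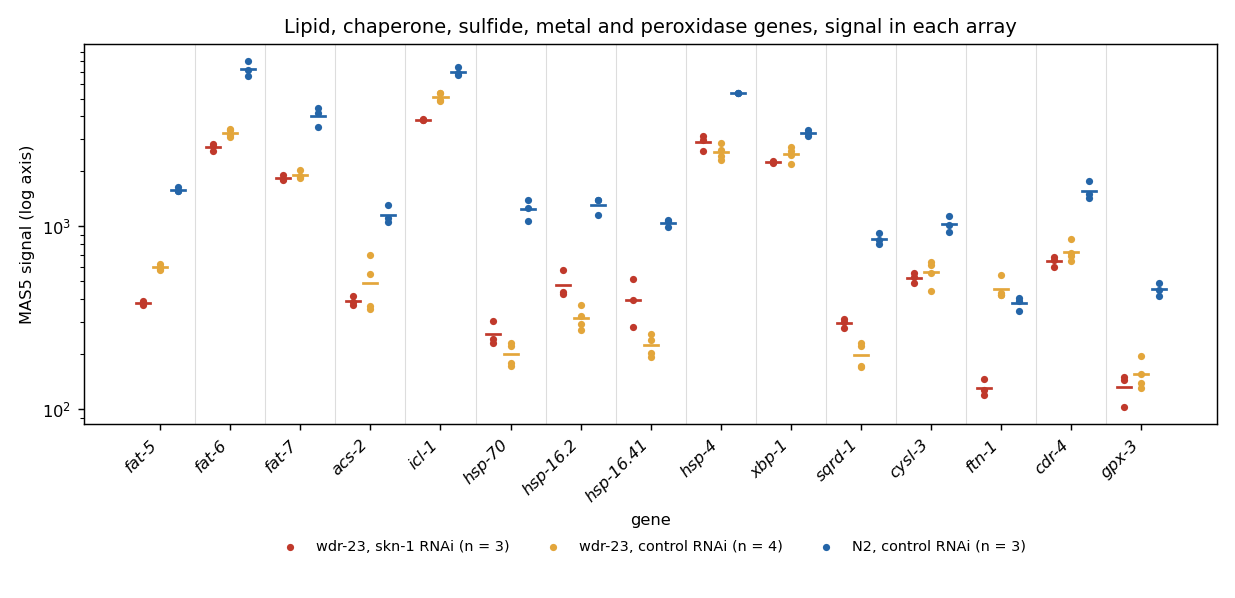
MAS5 signal (log axis) in each array for 15 genes of lipid metabolism, chaperones, sulfide, metals and peroxide removal that were called lower, with a line at each group mean: wdr-23 skn-1 RNAi animals (n = 3), wdr-23 control RNAi animals (n = 4) and N2 (n = 3). In ftn-1 wdr-23 control RNAi animals averaged 455 and lay above N2, while in the other 14 genes every array of both mutant groups lay below N2.

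Immune effector genes differed in both directions. Of 95 C-type lectins bright enough to test of 220 on the array, 6 were higher and 14 lower, with a median of -0.03. Without any 1 of the N2 or skn-1 RNAi arrays 2 to 4 were higher and 8 to 11 lower. The lectin gene clec-3 had signals of 47.5, 48 and 61.3 in wdr-23 skn-1 RNAi animals and 5929.5 ± 455 in wdr-23 control RNAi animals, against 20.5, 7.21 and 21.6 in N2. The knockdown arrays were slightly above N2 and far below wdr-23 control RNAi animals (log2 change against N2 1.03, adjusted p = 0.000984). Rises were also called for clec-17 (0.96), clec-74 (0.87) and clec-227 (0.75). Calls ended for clec-74 on leaving out N2 replicate 2 or 3, skn-1 RNAi replicate 1 or 3 or control RNAi mutant replicate 3 or 4 (0.58 to 0.87) and for clec-227 on leaving out N2 replicate 1 or 2, any skn-1 RNAi replicate or control RNAi mutant replicate 2 (0.61 to 0.796). The gene clec-67 had signals of 166, 152 and 153 in wdr-23 skn-1 RNAi animals and 1331 ± 101 in wdr-23 control RNAi animals, against 468, 448 and 393 in N2. It thus lay below wild type with skn-1 RNAi and above it with control RNAi, as did its relative clec-66 (log2 changes against N2 with skn-1 RNAi -1.37 and -1.28). The genes clec-174 (-1.38) and clec-85 (-1.305) fell as well.

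Of 11 lysozymes 1 was higher and 1 lower, with 2 higher without N2 replicate 3. The gene lys-10 had signals of 165, 146 and 161 in wdr-23 skn-1 RNAi animals and 28.9 ± 11.807 in wdr-23 control RNAi animals, against 26.6, 49.1 and 48.2 in N2. The knockdown arrays were the highest of the series (log2 change 1.57, SE 0.23, adjusted p = 0.000425). The gene lys-6 fell by 0.56 (log2), a call that ended on leaving out N2 replicate 3 or skn-1 RNAi replicate 1 or 3 (-0.54 to -0.51). Of 15 caenopores, pore-forming antimicrobial peptides, spp-12 (0.99) rose, and 1 was called lower with median centring and without N2 replicate 1. Of 22 CUB-like and dod effectors 4 were higher, led by K08D8.4 (1.39) and K08D8.5 (1.19), with irg-5 (0.92) and dod-24 (0.89). Another 4 were lower, irg-4 (-0.89), irg-3 (-0.85), cld-9 (-0.54) and C17H12.8 (-0.48). Calls ended for cld-9 on leaving out N2 replicate 1 or 2 or skn-1 RNAi replicate 3 (-0.52 to -0.44) and for C17H12.8 on leaving out N2 replicate 1 or 2 or any skn-1 RNAi replicate (-0.51 to -0.39). Of 20 epidermal antimicrobial peptides, 3 were called higher without N2 replicate 3, and 2 without skn-1 RNAi replicate 1 or control RNAi mutant replicate 2 or 4. With all arrays, nlp-25 (1.07) rose and nlp-26 (-0.52) fell, the nlp-26 call ending on leaving out N2 replicate 1 or 3 or any skn-1 RNAi replicate (-0.57 to -0.402). Of 19 cathepsin and aspartyl proteases, asp-13 (0.85), cpr-4 (0.75) and cpr-8 (0.57) rose and cpr-3 (-0.70) and asp-8 (-0.56) fell. Calls ended for cpr-8 on leaving out N2 replicate 1 or skn-1 RNAi replicate 2 or 3 (0.52 to 0.57), for cpr-3 on leaving out N2 replicate 1 or 2 or skn-1 RNAi replicate 1 or 3 (-0.73 to -0.56) and for asp-8 on leaving out N2 replicate 1 or 2 or any skn-1 RNAi replicate (-0.61 to -0.46).

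Tissue lists were read as a check on the makeup of the animals; in whole animals, fewer cells of a type and less RNA per cell cannot be told apart. Of 19 intestine markers 1 was higher and 4 lower. Besides ftn-1 and mtl-2 the microvillar actin gene act-5 (-0.37) and the proton pump gene vha-6 (-0.44) fell, and a rise was called for elt-2 (0.54), the gene of a gut GATA factor. The summed signal of the 19 markers was 29825 to 30712 in wdr-23 skn-1 RNAi animals and 37607 to 43179 in wdr-23 control RNAi animals, against 35554 to 37504 in N2, so the knockdown arrays were the lowest of the series. The part of this shift in the falls of gut genes was not tested. Calls ended for act-5 on leaving out N2 replicate 1 or 2 or any skn-1 RNAi replicate (-0.404 to -0.31), for vha-6 on leaving out any N2 replicate or skn-1 RNAi replicate 1 or 2 (-0.45 to -0.398) and for elt-2 on leaving out any of the 6 arrays (0.47 to 0.61). Of 30 body-wall muscle genes, mup-2 (-0.38), a troponin T gene, was called lower, and not on leaving out N2 replicate 1 or 3 or skn-1 RNAi replicate 2 or 3 (-0.397 to -0.30). The summed signals of the muscle, neuron and pharynx lists overlapped between wdr-23 skn-1 RNAi animals and N2. Of 24 neuron genes limma called 0, with 1 higher and 2 lower at an unadjusted p under 0.05. Of 64 pharynx genes phat-5 (0.795), abu-8 (0.71) and pqn-31 (0.59) rose and phat-3 (-1.05) fell. Calls ended for phat-5 on leaving out N2 replicate 2 or 3 or skn-1 RNAi replicate 1 or 3 (0.61 to 0.79) and for abu-8 on leaving out N2 replicate 1 or any skn-1 RNAi replicate (0.44 to 0.73).

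Genes of the cuticle and of moulting were called in both directions. Of 117 cuticle collagens 1 was higher and 7 (5.98%) lower, with a median of -0.09, beside 2.55% lower over all genes. The lower count was 2 without N2 replicate 2, 4 without wdr-23 skn-1 RNAi replicate 2 and 3 without wdr-23 skn-1 RNAi replicate 3. The rise was col-148 (0.75), and the largest falls were col-36 (-0.86), col-142 (-0.801), col-180 (-0.64) and col-149 (-0.59). The col-148 call ended on leaving out any N2 replicate or skn-1 RNAi replicate 2 or 3 (0.54 to 0.82), and the col-36 call on leaving out N2 replicate 1 or 2 or skn-1 RNAi replicate 2 (-0.81 to -0.73). Calls ended for col-180 on leaving out N2 replicate 2 (-0.55) and for col-149 on leaving out N2 replicate 1 or 3 or any skn-1 RNAi replicate (-0.64 to -0.51). Of 5 furrow collagens, dpy-9 (0.68) and dpy-7 (0.61) rose, the calls ending for dpy-9 on leaving out N2 replicate 2 or 3 or any skn-1 RNAi replicate (0.58 to 0.69) and for dpy-7 on leaving out N2 replicate 3 or skn-1 RNAi replicate 1 or 3 (0.51 to 0.63). Of 29 moulting protease and apical matrix genes 4 (13.8%) rose and 0 fell, beside 4.12% higher over all genes. The higher count was 2 without N2 replicate 3, skn-1 RNAi replicate 2 or skn-1 RNAi replicate 3, and 1 gene was called lower without skn-1 RNAi replicate 1. The matrix gene noah-1 had signals of 1230.4, 1656 and 1658 in wdr-23 skn-1 RNAi animals and 2379.9 ± 131 in wdr-23 control RNAi animals, against 763, 777 and 684 in N2 (log2 change 1.001, adjusted p = 9.85e-05). The others were the lipocalin gene lpr-3 (0.899), noah-2 (0.73) and let-653 (0.73). Calls ended for noah-2 on leaving out N2 replicate 3 or skn-1 RNAi replicate 2 or 3 (0.61 to 0.67) and for let-653 on leaving out any of the 6 arrays (0.68 to 0.79). Of 56 hedgehog-related and patched-related genes, which serve the cuticle in worms, 4 (7.14%) rose and 0 fell. Without N2 replicate 1, 2 were higher and 2 lower; the higher count was also 2 without skn-1 RNAi replicate 1 or 3 and without suffixed probe sets, and median centring gave 4 higher and 1 lower. The rises were grl-30 (1.16), wrt-10 (0.94), qua-1 (0.68) and wrt-2 (0.58). Calls ended for grl-30 on leaving out N2 replicate 1 or skn-1 RNAi replicate 1 or 3 (0.87 to 1.12) and for wrt-2 on leaving out any of the 6 arrays (0.48 to 0.65). Of 11 osmolyte genes limma called 0, with 1 higher and 0 lower at an unadjusted p under 0.05, and 1 was called higher without N2 replicate 3. Of 12 bus genes of the surface coat it called 0 as well, with 2 higher and 0 lower unadjusted.

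Sperm genes were the third list by its share of rises among lists with at least 10 tested genes. Of 67 tested, 19 were called higher and 0 lower, with a median log2 change of 0.27 beside 0.03 over all genes. The gene nspd-9, of a sperm-specific family, had signals of 567, 608 and 897 in wdr-23 skn-1 RNAi animals and 1182 ± 74 (SD, n = 4) in wdr-23 control RNAi animals, against 329, 249.5 and 259 in N2. The knockdown arrays lay above N2 (log2 change 1.23, SE 0.16, adjusted p = 0.000127). Rises were also called for spe-43 (1.09), ssp-34 (0.88) and spe-26 (0.81), and spe-43 was not called on leaving out N2 replicate 1 or 2 or skn-1 RNAi replicate 1 or 3 (0.83 to 1.096). By family, 8 of 28 spe genes, 6 of 8 ssp genes and 4 of 5 nspd genes were called higher, against 1 of 23 major sperm protein genes. The summed signal of the list was 353488 to 415673 in wdr-23 skn-1 RNAi animals and 327982 to 377118 in wdr-23 control RNAi animals, against 306869 to 365328 in N2, so the ranges overlapped. Median centring left 13 called. The count fell to 8 without wdr-23 skn-1 RNAi replicate 3 and 9 without wdr-23 skn-1 RNAi replicate 1. It was 10 without N2 replicate 1 and 11 without N2 replicate 2. With no filter 10 of 70 tested genes were called. Without suffixed probe sets only 28 were tested, of which 10 were called, with a median of 0.47. The labels give the stage of every sample as L4 alike, and the part of small differences in stage was not tested.

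Among other germ line and growth lists only histones held called genes. Of 36 oocyte and eggshell genes limma called 0, with 3 higher and 0 lower at an unadjusted p under 0.05 and 1 called higher without N2 replicate 2, and of 37 DNA replication genes it called 0, with 0 and 1 unadjusted. Of 5 vitellogenins 0 were called (0 unadjusted), and of 74 ribosomal protein genes 0 were called (0 unadjusted), with a median of -0.02. Of 33 histone genes his-70 (0.65) and his-39 (0.51) rose, calls that ended on leaving out N2 replicate 1 or skn-1 RNAi replicate 3 (0.53 to 0.62) for the first and on leaving out N2 replicate 1 or 3 or skn-1 RNAi replicate 2 or 3 (0.46 to 0.495) for the second.

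Of 64 neuropeptide and insulin-like genes 4 (6.25%) rose and 0 fell: the insulin-like genes ins-37 (0.87) and ins-7, and the peptide genes flp-6 (0.78) and flp-8 (0.67), the last not called on leaving out N2 replicate 1 or 2 or skn-1 RNAi replicate 2 or 3 (0.59 to 0.67). Of 158 nuclear hormone receptors bright enough to test of 254 on the array, 2 were higher and 9 (5.696%) lower, and without any 1 of the N2 or skn-1 RNAi arrays 3 to 6 were lower. The receptor gene nhr-61 had signals of 267, 326 and 295 in wdr-23 skn-1 RNAi animals, against 131, 101 and 81.6 in N2 (log2 change 1.36, adjusted p = 2.71e-05), and nhr-207 rose by 1.04. The largest falls were nhr-137 (-1.09), nhr-58 (-1.09), nhr-21 (-0.9998) and nhr-10 (-0.92). Calls ended for nhr-207 on leaving out N2 replicate 2 or skn-1 RNAi replicate 1 or 2 (0.79 to 1.02), for nhr-58 on leaving out any N2 replicate, skn-1 RNAi replicate 1 or 3 or control RNAi mutant replicate 3 or 4 (-1.23 to -0.801) and for nhr-10 on leaving out N2 replicate 1 or 3 or skn-1 RNAi replicate 1 or 3 (-0.898 to -0.85). Of 169 F-box, BATH and adaptor genes bright enough to test of 373 on the array, bath-36 (0.54) rose and fbxa-72 (-0.61) and skr-21 (-0.48) fell, with 3 higher without N2 replicate 3. Calls ended for bath-36 on leaving out N2 replicate 1 or 2 or any skn-1 RNAi replicate (0.45 to 0.58), for fbxa-72 on leaving out N2 replicate 1 or 2 or skn-1 RNAi replicate 1 or 2 (-0.64 to -0.46) and for skr-21 on leaving out any of the 6 arrays or control RNAi mutant replicate 1, 2, 3 or 4 (-0.54 to -0.41). The 43 lists together held 186 of the 805 called genes.

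**Figure D5:**
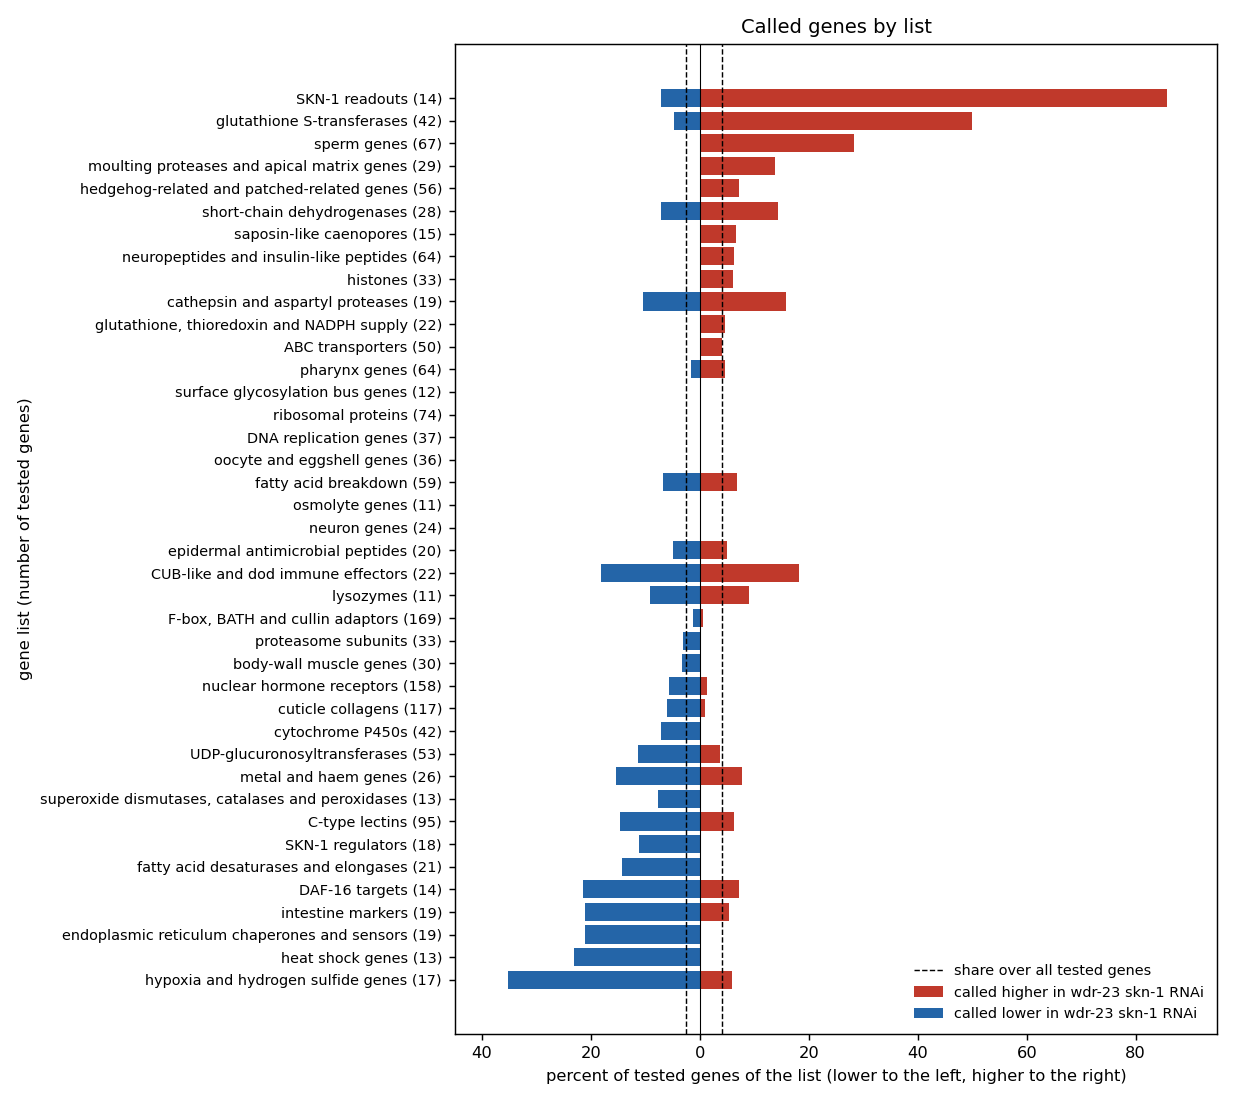
Share of tested genes called higher (bars to the right) and lower (bars to the left) in wdr-23 skn-1 RNAi animals than in N2, for each list with at least 10 tested genes, whose number is in brackets. Dashed lines mark the shares over all tested genes, 4.12% higher and 2.55% lower; SKN-1 readouts, glutathione S-transferases and sperm genes extend furthest to the right, and hypoxia and hydrogen sulfide genes furthest to the left.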

How the data were processed

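RNA of 10 whole-animal samples, 3 of wdr-23 with skn-1 RNAi, 4 of wdr-23 with control RNAi and 3 of N2, was measured on Affymetrix C. elegans arrays. The deposited values are linear intensity values, MAS5 signals per the submitters' processing notes; the version is not given in the sources used here. Trimmed means of 500.11 to 500.14 in each array show a common scaling. The number of arrays limits the precision; the median SE of a log2 change was 0.163, and no detection calls were used. The array holds 22625 probe sets, and 77 of them, for spiked controls, were not used. The platform table names 1 gene for 20766 probe sets, several for 887 and none for 895.

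Signals were taken to log2 after adding 19, the 20th percentile of all signals, and the lowest 30% of probe sets by mean were left out. The rest, 15783, went into 1 limma model (version 3.58.1, R 4.3.3) of the 3 groups, with lmFit, an intensity trend in eBayes and two-sided p-values. These took the Benjamini-Hochberg adjustment across the tested probe sets. The probe set with the highest mean stood for its gene. A suffix is pointed out for some genes only, and other named genes may also have suffixed probe sets. Folds are powers of 2 of the fitted change. On simulated data with this design the fit recovered 17.3%, 80.3% and 99.4% of log2 changes of 0.5, 1 and 2, and 4.66% of its calls were false. The simulated noise was normal and independent between probe sets, and 200 of the 15783 were changed. It held no effect shared by an array, so it does not cover differences in scaling or ribosomal RNA.

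Named genes were the 12 largest called rises and falls whose groups did not overlap, the SKN-1 readouts, up to 4 called genes each way per list, and all called genes of lists with 5 or fewer calls. Genes outside this rule are named as such. The members, lists and tests were chosen with earlier results of these data known. The alternatives were other pseudocounts, filters and scalings, fewer arrays, no trend, a replicate block and no suffixed probe sets. Tables were handled with python 3.11.15, numpy 2.4.6, pandas 2.3.3 and scipy 1.17.1. No sequence or coordinate was used here.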

Additional observations from a re-analysis of the deposited data

Results flagged for a closer look

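Among the 171 named genes, 7 (4.09%) had 1 of the 4 arrays of wdr-23 control RNAi animals far from the other 3, where chance gives about 1 in 20. The gap between that array and its nearest neighbour, as a share of the whole range, was 0.957 for gsto-2, 0.946 for cpr-8, 0.928 for ftn-1, 0.877 for acs-7, 0.857 for gst-20, 0.848 for flp-6 and 0.844 for his-39. For cpr-8 the signal of 933 in replicate 2 stood above 719 to 731 in the others, and for gst-20 the signal of 3447 in replicate 2 stood above 3056 to 3112. For ftn-1 the signal of 544 in replicate 3 stood above 422 to 430.4, so in ftn-1 the other 3 arrays of wdr-23 control RNAi animals lay close to N2. These arrays enter the comparison with N2 through the shared estimate of the spread. Groups of 3 arrays, those of wdr-23 skn-1 RNAi animals and of N2, are too small for this check.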

How the results depend on the processing

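Of 169 named genes that were called, 110 were called under all 20 alternatives that tested them and 0 reversed. Pairing by replicate number was not borne out: residuals of same-numbered arrays of wdr-23 skn-1 RNAi animals and N2 correlated at 0.11, -0.03 and 0.15, and a replicate block gave 637 higher and 379 lower probe sets. Totals without single arrays ran from 523 to 1047 (297 to 640 higher, 226 to 407 lower). Without suffixed probe sets 609 of 11086 were called, 394 higher and 215 lower, fewer having been tested. With a pseudocount of 50, 83 probe sets rose at least 2-fold. The median of all changes moved by -0.04 after quantile normalization (457 higher, 414 lower) and by -0.06 with median centring. The change of ptps-1, which was not called, turned to 0.02 without N2 replicate 1 and to 0.086 without wdr-23 skn-1 RNAi replicate 2, and lay between -0.14 and 0.086 over single arrays left out; the cause was not tested. The 19 of 67 sperm genes became 10 of 70 with no filter and 10 of 28 without suffixed probe sets, and 8 to 23 over single arrays left out. The log2 change of the second skn-1 probe set was -0.71 to -0.55 over them. Of the 86 list counts, 55 to 84 stayed within 1.5 times without single arrays and 65 to 86 under the other alternatives. Single values are printed for the 6 counts the report leads with, a choice made after the results were seen; besides the sperm count, 1 of these moved beyond that limit, the 6 hypoxia and sulfide falls, to 2 of 9 tested without suffixed probe sets and 4 to 6 over single arrays left out. Dim signal limits the tests: 125 of 220 lectins fell below the filter.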

Other observations

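Several called genes outside the lists were picked after their values were seen. The sugar transporter gene swt-2 had signals of 79.3, 85.1 and 98 in wdr-23 skn-1 RNAi animals and 497 ± 109 (SD, n = 4) in wdr-23 control RNAi animals, against 9.86, 11.499 and 14.7 in N2 (log2 change 1.78, limma adjusted p = 7.78e-06). The gene nxnr-1 had signals of 492, 533 and 586 in wdr-23 skn-1 RNAi animals and 5554 ± 1067 in wdr-23 control RNAi animals, against 67.9, 71.9 and 62.9 in N2 (log2 change 2.68). In both genes the knockdown arrays lay between the other groups. The glutathione synthesis modifier gene gclm-1 rose by 0.61 (log2).

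Some genes of sugar metabolism fell. The gluconeogenesis gene pck-1, for phosphoenolpyruvate carboxykinase, had signals of 2049.6, 1652 and 1601 in wdr-23 skn-1 RNAi animals and 1001 ± 148 in wdr-23 control RNAi animals, against 3261, 3025 and 3041 in N2 (log2 change -0.82, adjusted p = 0.00138). The aldolase gene aldo-1 (-0.65) and the fructose bisphosphatase gene fbp-1 (-0.46) fell as well, and the fbp-1 call ended on leaving out any of the 6 arrays (-0.49 to -0.41). The pentose phosphate gene T25B9.9 (0.46) rose, a call that ended on leaving out any N2 replicate or skn-1 RNAi replicate 1 or 2 (0.41 to 0.48). The gene semo-1, for a methanethiol oxidase, had signals of 259, 256 and 292 in wdr-23 skn-1 RNAi animals and 1103 ± 121 in wdr-23 control RNAi animals, against 918, 794 and 749.5 in N2. Its knockdown arrays were the lowest of the series (log2 change -1.54, adjusted p = 8.65e-07). The gene sid-2, for the intestinal protein that takes up double-stranded RNA from food, had signals of 209, 255 and 203 in wdr-23 skn-1 RNAi animals and 369 ± 31.4 in wdr-23 control RNAi animals, against 373, 424 and 481 in N2 (log2 change -0.88, adjusted p = 0.000991).

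Of the 1001 called probe sets, 95 name no single gene, 79 of them naming several genes and 16 none. An unnamed probe set had signals of 7698, 7873 and 6839.9 in wdr-23 skn-1 RNAi animals and 711 to 1379.9 in wdr-23 control RNAi animals, against 623, 676 and 692 in N2, a pattern like that of the rrn-3.1 probe sets. By chromosome, the share of tested genes called was 9.34% on V, 7.88% on IV, 6.94% on II, 5.68% on X, 5.29% on I and 4.16% on III, given as a description with no test. The higher and lower counts were 85 and 20 of 1986 tested genes on I and 99 and 45 of 2074 on II. On III they were 49 and 29 of 1874, and on IV 109 and 51 of 2031. On V they were 121 and 99 of 2356, and on X 34 and 63 of 1707. Over all 12061 tested genes 6.67% were called, 4.12% higher and 2.55% lower.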
